A study of Mus musculus with 10 samples.

Results

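The 6 genes described here, Ddx17, Tle3, Slc44a2, Plxnc1, B4galt5 and Cdc42se2, were chosen by their loop numbers in these data, as genes with more chromatin loops in macrophages that had received IL-4 and been washed (M2p[pIL-4]) than in untreated ones (M0[CTR]). They are 6 of the 12230 protein-coding genes that had a mean of at least 5 loops over the lists, and all 6 passed that minimum. A loop was counted for a gene when at least 1 of its 10 kb anchor bins overlapped the 100 kb on either side of the transcription start site (TSS). Because the M2p[pIL-4] and M0[CTR] loop numbers selected the genes, these numbers are given as a description, with no test.

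Hi-C ligates neighbouring pieces of crosslinked chromatin and sequences the joints. It was carried out on bone marrow-derived macrophages of wild type female C57BL/6 mice aged 2 to 3 months, differentiated in M-CSF and treated on day 6. M0[CTR] cells were left untreated, M2[IL-4] cells were kept in IL-4 at 20 ng/ml for 24 h, and M2p[pIL-4] cells received the same IL-4, were washed and then rested without it for 24 h. IFNG cells received IFNG at 20 ng/ml for 3 h with no IL-4 before it, and pIL-4 + IFNG cells received IL-4, the wash and the rest before the same IFNG. Each group had 2 replicates but is represented by 1 loop list, so no value below has a replicate check, and the intervals given cover counting error only. How long the M0[CTR] and IFNG cells stayed in culture beside the washed ones is not given in the sources used here, so time in culture and IL-4 washout cannot be told apart. List length was 53424 loops in M0[CTR], 55012 in IFNG, 58260 in M2[IL-4], 67000 in pIL-4 + IFNG and 67728 in M2p[pIL-4]. The M2p[pIL-4] list was thus 26.8% and the pIL-4 + IFNG list 25.4% longer than that of M0[CTR], and loop ratios below are scaled by list length unless called raw.

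Chromatin loops bring distant DNA segments together, and many are held by cohesin stopped at sites of the DNA-binding protein CTCF, while others join enhancers to promoters. IL-4 acts on macrophages through the transcription factor STAT6 and drives alternative polarization, and IFNG drives inflammatory polarization. Ddx17 encodes a DEAD-box RNA helicase and Tle3 a corepressor of the Groucho family, both nuclear regulators of gene expression. Slc44a2 encodes a choline transporter-like membrane protein, and Plxnc1 a plexin, the receptor for semaphorin 7A. B4galt5 encodes a galactosyltransferase that makes lactosylceramide, and Cdc42se2 a small protein that binds the GTPase Cdc42.

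Sequence is shown first for the 2 intergenic bins on which part of the gain at Tle3 and Plxnc1 rested. No loop of M0[CTR], M2[IL-4] or IFNG touched either of them, while at least 14 loops of M2p[pIL-4] did. MboI, the enzyme that cut the chromatin before ligation, cuts at GATC. Each line gives, in GRCm38 on the plus strand, the stretch of 120 bases with the most such sites found in the bin, with the GATC sites in capitals.
Tle3, chr9:61692800-61692919: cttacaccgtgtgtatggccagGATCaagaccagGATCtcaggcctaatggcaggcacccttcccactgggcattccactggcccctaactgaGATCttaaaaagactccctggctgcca
Plxnc1, chr10:95010666-95010785: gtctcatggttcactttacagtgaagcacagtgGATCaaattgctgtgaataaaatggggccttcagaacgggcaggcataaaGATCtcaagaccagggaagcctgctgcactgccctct
The Tle3 stretch held 3 GATC sites and the Plxnc1 stretch 2, against a median of 3 in such stretches of the 2421 bins with 10 or more loops in a list, so neither stretch is unusual by itself. The whole 10 kb bins held 35 and 38 sites, against a median of 24 over all 10 kb bins of the genome.

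Summed over the 6 genes, M0[CTR] had 253 loops and M2p[pIL-4] had 469, a raw ratio of 1.85. The sum was 292 in IFNG, 322 in M2[IL-4] and 389 in pIL-4 + IFNG. A loop number here counts pairs of 10 kb bins, and neighbouring pairs can belong to 1 contact patch. When touching bin pairs of a window were counted as 1 patch, the 6 genes held 95 patches in M0[CTR], 101 in IFNG, 105 in M2[IL-4], 122 in pIL-4 + IFNG and 125 in M2p[pIL-4].

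**Figure D1:**
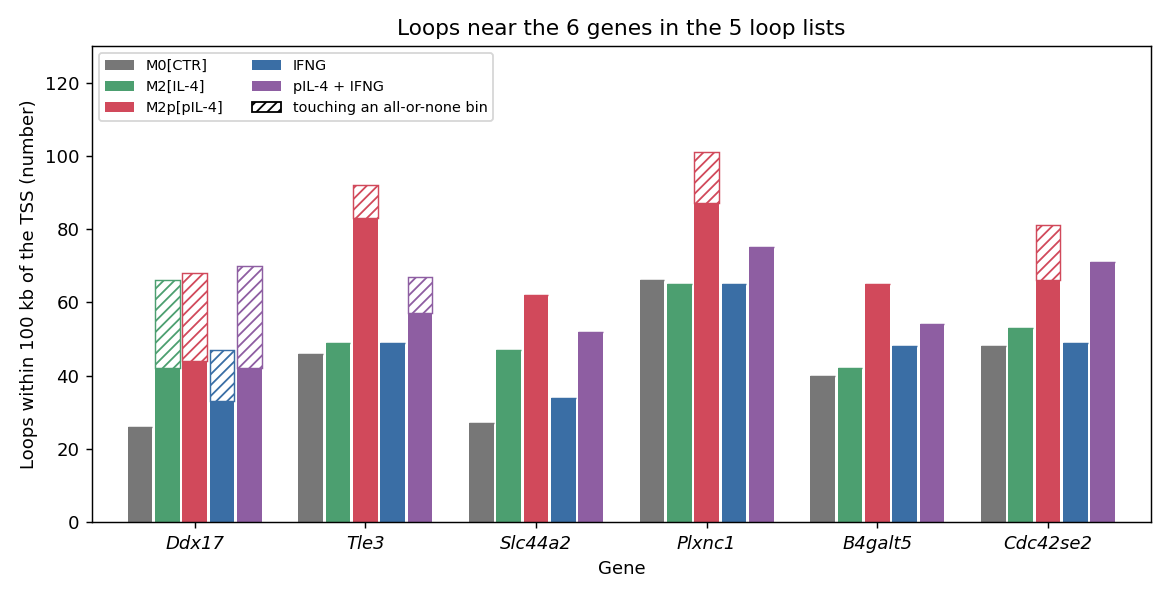
Number of loops with an anchor bin within 100 kb of the TSS of each gene, 1 bar for each of the 5 loop lists, with no error bar because each group has 1 list. Hatching marks loops that touch a bin with 10 or more loops in 1 list and none in another. The M2p[pIL-4] bar is the highest of the 5 at every gene except Ddx17, where pIL-4 + IFNG had 70 loops and M2p[pIL-4] 68.

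Ddx17 (ENSMUSG00000055065.7, chr15:79527736-79546741, minus strand) had 26 loops in M0[CTR], 47 in IFNG, 66 in M2[IL-4], 70 in pIL-4 + IFNG and 68 in M2p[pIL-4]. M0[CTR] was the lowest list, and M2[IL-4] was already within 2 loops of M2p[pIL-4]. The scaled ratio to M0[CTR] was 2.02-fold in M2p[pIL-4] (log2 1.01, 95% interval 0.37 to 1.76), 2.28-fold in M2[IL-4] (log2 1.19, 0.54 to 1.93) and 1.73-fold in IFNG (log2 0.79, 0.09 to 1.56). More loops at Ddx17 than in M0[CTR] were therefore counted under continuing IL-4 and with IFNG alone as well as after washout. These ratios share the M0[CTR] number, which helped choose the gene, so no separate gain in each list is read from them. None of the loops touched the bin of the Ddx17 TSS in any list.

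The strongest gained loop at Ddx17 in M2p[pIL-4], relative to the median contacts at its span, joined chr15:79170001-79180000 to chr15:79480001-79490000. A gained loop is one with no M0[CTR] loop whose anchors both lie within 25 kb of its own. It was not called in M0[CTR] and had 33 contacts in IFNG, 33 in M2[IL-4], 38 in pIL-4 + IFNG and 46 in M2p[pIL-4]. Its contacts in M2p[pIL-4] were 2.09 times the median at the same span, and its second anchor overlaps Kcnj4, a potassium channel gene. That anchor bin was touched by 0 loops in M0[CTR], 14 in IFNG, 14 in M2[IL-4], 15 in pIL-4 + IFNG and 14 in M2p[pIL-4]. The next bin, chr15:79490001-79500000, was touched by 0, 0, 10, 13 and 10 loops in the same order of lists. Loops touching these 2 bins made up 57.1% of the difference of 42 loops between M2p[pIL-4] and M0[CTR]. They carried part of the rise in the other lists as well. Without them, Ddx17 had 26 loops in M0[CTR], 33 in IFNG, 42 in M2[IL-4], 42 in pIL-4 + IFNG and 44 in M2p[pIL-4].

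Tle3 (ENSMUSG00000032280.16, chr9:61372366-61418497, plus strand) had 46 loops in M0[CTR], 49 in IFNG, 49 in M2[IL-4], 67 in pIL-4 + IFNG and 92 in M2p[pIL-4]. Both washed-out lists were above the other 3, which lay within 3 loops of each other. The difference of 46 loops ranked 3rd among the 12230 genes, and the scaled ratio of 1.56-fold (log2 0.64, 0.13 to 1.20) ranked 824th. Against M2[IL-4], M2p[pIL-4] was 1.60-fold higher (log2 0.68, 0.18 to 1.22). Tle3 loops were long, with a median span of 385 kb in M2p[pIL-4], and the window held the TSS of no other protein-coding gene. The bin of the Tle3 TSS was touched by 3 loops in M0[CTR] against 6 in M2p[pIL-4].

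The strongest gained loop at Tle3 joined chr9:61320001-61330000 to chr9:61690001-61700000, the bin of the first sequence above, centred 323 kb downstream of the TSS. It had 26 contacts in pIL-4 + IFNG and 35 in M2p[pIL-4], and was called in no other list. In all, that distal bin was touched by 23 loops in pIL-4 + IFNG, 17 in M2p[pIL-4] and 0 in the other 3 lists. Of these loops, 10 in pIL-4 + IFNG and 9 in M2p[pIL-4] reached the Tle3 window, and the 9 made up 19.6% of the difference from M0[CTR]. Without them Tle3 still had 83 loops in M2p[pIL-4] against 46, a scaled ratio of 1.42.

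Slc44a2 (ENSMUSG00000057193.8, chr9:21320698-21355028, plus strand) had 27 loops in M0[CTR], 34 in IFNG, 47 in M2[IL-4], 52 in pIL-4 + IFNG and 62 in M2p[pIL-4]. All 3 lists of cells given IL-4 were above both lists of cells that were not. The scaled ratio to M0[CTR] was 1.77-fold in M2p[pIL-4] (log2 0.83, 0.18 to 1.57) and 1.57-fold in M2[IL-4] (log2 0.65, -0.04 to 1.41). The locus is dense in genes, and 8 other protein-coding genes have their TSS in the window, so its loops cannot be assigned to Slc44a2 alone. The same limit applies at Ddx17, Cdc42se2 and B4galt5, whose windows hold the TSS of 4, 2 and 1 other protein-coding genes.

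The strongest gained loop at Slc44a2 joined chr9:21230001-21240000, which holds the TSS of Keap1, the sensor that targets the oxidative stress factor Nrf2 for degradation, to chr9:21410001-21420000, which holds that of Qtrt1, a tRNA-modifying enzyme gene. It had 36 contacts in M2p[pIL-4] (exact Poisson 95% interval 25.2 to 49.8) and was called in no other list. The Qtrt1 bin was touched by 7 loops in pIL-4 + IFNG, 6 in M2p[pIL-4], 4 in M2[IL-4] and 0 in M0[CTR] and IFNG. It was the only 1 of 22 bins examined at the 6 genes to hold an exact match to the 12-base core of the CTCF motif, searched on both strands. The match is shown with its flanks, in GRCm38 on the minus strand, with the core in capitals.
CTCF core match, chr9:21417107-21417136: tggcctcctCCACTAGAGGGCctgtcactg
Such a match stood in 20.2% of bins with 10 or more loops in a list and in 4.70% of all 10 kb bins, so its presence in 1 bin of 22 is a description only.

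Plxnc1 (ENSMUSG00000074785.5, chr10:94790866-94944835, minus strand) had 66 loops in M0[CTR], 65 in IFNG, 65 in M2[IL-4], 75 in pIL-4 + IFNG and 101 in M2p[pIL-4]. The M0[CTR], M2[IL-4] and IFNG lists differed by 1 loop, and M2p[pIL-4] stood above all others. After scaling, the M2p[pIL-4] ratio to M0[CTR] was 1.20-fold (log2 0.26, -0.19 to 0.74), an interval that holds 0. The strongest gained loop lay inside the gene, between chr10:94860001-94870000 and chr10:94900001-94910000, with 70 contacts in M2p[pIL-4], 65 in pIL-4 + IFNG and no call in the other 3 lists. The bin of the second sequence above, centred 70.2 kb from the TSS on its upstream side, was touched by 14 loops in M2p[pIL-4] and by 0 in each other list. These 14 loops made up 40% of the difference of 35 loops.

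B4galt5 (ENSMUSG00000017929.13, chr2:167298444-167349183, minus strand) had 40 loops in M0[CTR], 48 in IFNG, 42 in M2[IL-4], 54 in pIL-4 + IFNG and 65 in M2p[pIL-4]. M2p[pIL-4] was the highest list and M0[CTR] the lowest. The scaled ratio between them was 1.27-fold (log2 0.34, -0.23 to 0.96). With a difference of 25 loops, B4galt5 ranked 232nd among all genes, the lowest rank of the 6. The strongest gained loop joined chr2:167320001-167330000, inside B4galt5, to chr2:167490001-167500000, which holds the TSS of both Spata2 and Rnf114. It had 34 contacts in M2p[pIL-4] (23.5 to 47.5) and was called in no other list.

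Cdc42se2 (ENSMUSG00000052298.12, chr11:54717456-54787675, minus strand) had 48 loops in M0[CTR], 49 in IFNG, 53 in M2[IL-4], 71 in pIL-4 + IFNG and 81 in M2p[pIL-4]. Both washed-out lists were above the other 3. The scaled ratio of M2p[pIL-4] to M0[CTR] was 1.32-fold (log2 0.40, -0.12 to 0.96). None of its 81 loops in M2p[pIL-4] was gained within 25 kb, and its patches numbered 20 in M0[CTR] but 14 in M2p[pIL-4], so every added bin pair had an M0[CTR] pair within that distance. A single bin, chr11:54860001-54870000, which holds the TSS of Lyrm7 and of Hint1, was touched by 15 loops in M2p[pIL-4] and by 0 in each other list. Loops touching it made up 45.5% of the difference of 33 loops.

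**Figure D2:**
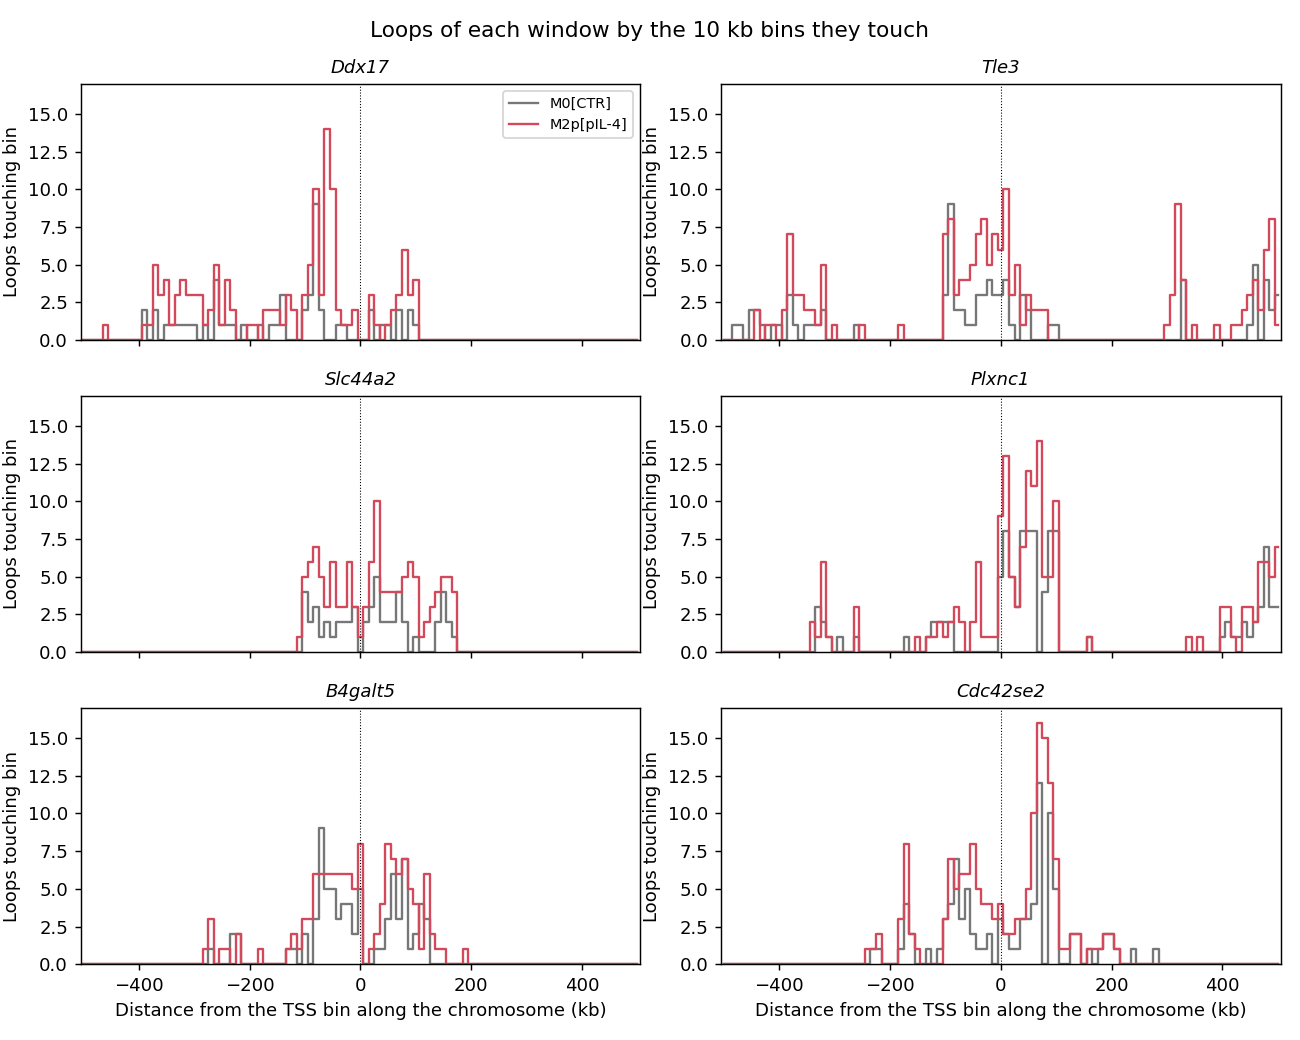
Number of loops of each gene's window that touch each 10 kb bin, in M0[CTR] (grey) and M2p[pIL-4] (red), against distance from the bin of the TSS along the chromosome (kb, higher coordinates to the right, shown to 500 kb). The tallest red steps over grey zeros are the bins with 14 loops in M2p[pIL-4] at Ddx17 and Plxnc1 and the bin with 15 at Cdc42se2.

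Relative to all genes, 3 of the 6 (Ddx17, Slc44a2 and Tle3) had a scaled loop number at least 1.5-fold higher in M2p[pIL-4] than in M0[CTR], where 7.24% of the 12230 tested genes passed that fold. Nothing is read from this share, since the same contrast chose the genes. The median log2 ratio of the 6 was 0.52, and that of all genes was -0.03. In bands farther from the TSS, which the choice of genes did not use, the median log2 ratio was -0.22 from 100 to 200 kb, 0.01 from 200 to 500 kb and 0.04 from 500 to 1000 kb. The choice itself raised the value within 100 kb, so no confinement of the gain to that window is read from the bands. Cdc42se2 had a log2 ratio of 0.44 from 200 to 500 kb, beside 0.40 within 100 kb. With touching bin pairs merged, 0 of the 6 genes passed 1.5-fold and the median was 0.25, and 1 passed with the IFNG list as the reference.

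Under continuing IL-4, M2[IL-4] against M0[CTR], 2 of the 6 passed 1.5-fold (Ddx17 and Slc44a2), against 8.92% of all genes. The other 4 had log2 ratios from -0.15 to 0.02, so the median of the 6 was -0.01. Between washout and continuing IL-4, M2p[pIL-4] against M2[IL-4], the median was 0.39 and 1 of the 6 passed (Tle3), against 7.95% of all genes. Ddx17 was the exception in direction, with a log2 ratio of -0.17 (-0.68 to 0.34). The M2p[pIL-4] cells also had a rest of 24 h that the M2[IL-4] cells did not, so time and washout cannot be told apart here either. By raw number, M2[IL-4] lay within 5 loops of M0[CTR] at Tle3, Plxnc1, B4galt5 and Cdc42se2, and was already higher at Ddx17 and Slc44a2. After scaling, the intervals of M2p[pIL-4] over M0[CTR] held 0 at Plxnc1, B4galt5 and Cdc42se2. Among those 4 genes, only the Tle3 interval lay above 0. That contrast chose the genes, and the intervals are too narrow where loops share a bin. No gain beyond counting error is therefore read from it. These comparisons share the M0[CTR], M2[IL-4] or M2p[pIL-4] list with each other and with the choice of genes.

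The IFNG lists were used to ask whether the pattern recurred between washed-out and unprimed cells that both received IFNG. In pIL-4 + IFNG against IFNG, 0 of the 6 genes passed 1.5-fold, against 7.36% of all genes. The log2 ratio was 0.31 (-0.32 to 1.00) at Slc44a2, 0.28 at Ddx17, 0.24 at Cdc42se2, 0.16 at Tle3, -0.08 at Plxnc1 and -0.12 at B4galt5. Their median was 0.20, against -0.02 for all genes, and all 6 intervals held 0. Raw loop numbers were higher in pIL-4 + IFNG than in IFNG at each gene, by between 6 loops at B4galt5 and 23 at Ddx17. The pIL-4 + IFNG list was itself longer, at 67000 loops against 55012, so no recurrence is read from the raw numbers. After scaling, 4 of the 6 genes were above 0, where 48.3% of all tested genes were. Without loops touching the bins that were full in 1 list and empty in another, the median was -0.0020.

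When IFNG was added after washout, pIL-4 + IFNG against M2p[pIL-4], 0 of the 6 genes were lower by 1.5-fold, against 6.08% of all genes. The median log2 ratio was -0.24, with all genes at 0.02. The M2p[pIL-4] numbers had chosen the genes, which by itself lowers any list set against them, so no fall with IFNG is read from this. Tle3 had the lowest value, -0.44 (-0.92 to 0.03), and Ddx17 was the only gene above 0, at 0.06 (-0.45 to 0.56).

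**Figure D3:**
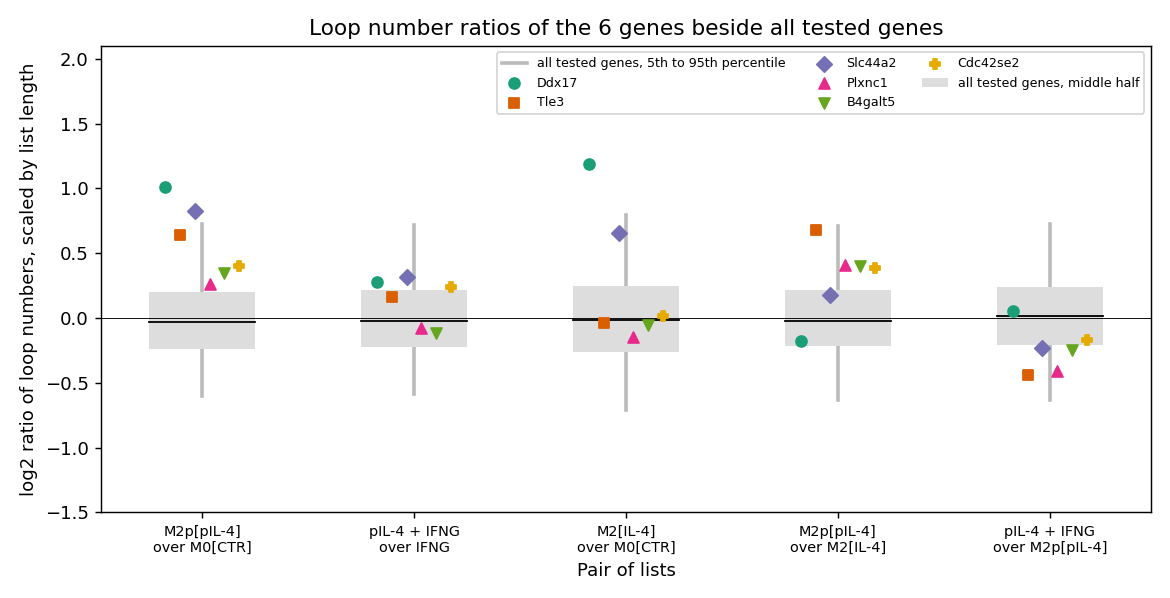
Log2 ratios of loop numbers, scaled by list length, for the 6 genes (coloured points) in 5 pairs of lists. Grey boxes span the middle 50% of the 12230 tested genes, grey lines their 5th to 95th percentiles and black lines their medians. Ddx17, Slc44a2 and Tle3 lie highest in M2p[pIL-4] over M0[CTR], and all points of pIL-4 + IFNG over IFNG lie inside the grey line.

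Contacts at loops that both lists called changed far less than loop number, which had chosen the genes. The same held over the whole lists, where the raw loop number ratio of M2p[pIL-4] to M0[CTR] was 1.27. At the 136 bin pairs of the 6 windows called in M0[CTR] and M2p[pIL-4] alike, the lists held 6218 and 6460 raw contacts, a ratio of 1.04 (95% interval 1.00 to 1.08), and the ratio over all such pairs of the lists was 1.03. By gene it was 1.07 at Slc44a2, 1.04 at Ddx17, 1.04 at Cdc42se2, 1.03 at B4galt5, 1.02 at Tle3 and 1.01 at Plxnc1. Of the 136 pairs, 72 had more contacts in M2p[pIL-4] and 57 fewer. Pairs called in both lists leave out those that fell below the caller's threshold in either.

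**Figure D4:**
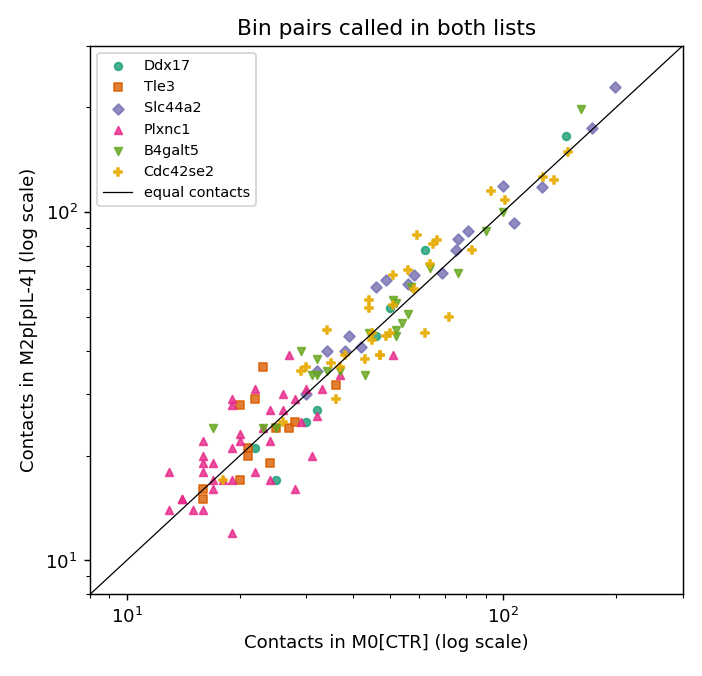
Raw contacts in M0[CTR] and M2p[pIL-4] at the 136 bin pairs called in both lists near the 6 genes, on log axes, 1 point for each pair. The points lie along the line of equal contacts, and their summed ratio was 1.04.

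Of the 469 loops of M2p[pIL-4], 333 (71.0%) were not called in the same bins in M0[CTR], against 57.8% of the whole list, a share that choosing genes with more loops in M2p[pIL-4] than in M0[CTR] raises. Only 61 (13.0%) had no M0[CTR] loop within 25 kb, against 14.1% of the whole list. These 61 loops comprised 16 at Ddx17, 16 at Tle3, 14 at Plxnc1, 9 at Slc44a2 and 6 at B4galt5. The 333 pairs had a median of 27 contacts and a strength of 1.00, the contacts over the median at the same span. The 136 shared pairs had a median of 36 contacts and a strength of 1.10. Of the 333 pairs, 31.8% were also in pIL-4 + IFNG, 23.1% in M2[IL-4] and 19.2% in IFNG, and 54.7% were in no other list. Over the whole M2p[pIL-4] list these shares were 28.6%, 24.6%, 22.5% and 52.8%. Pairs found in both washed-out lists and in no other numbered 43 (12.9%), against 10.6% for the whole list.

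Bins that were full in 1 list and empty in another carried part of the gain. Such all-or-none bins were defined, after the lists had been seen, as bins with 10 or more loops in 1 list and 0 in another. They were 43 of the 2421 bins with 10 or more loops in any list (1.78%), and 5 of the 43 supplied loops to 4 of the 6 genes. Of the 43, 37 were empty in M0[CTR], 27 in IFNG, 15 in M2[IL-4], 5 in pIL-4 + IFNG and 7 in M2p[pIL-4]. In M0[CTR], the bins on each side had 12 and 10 loops at Cdc42se2, 6 and 8 at Tle3 and 8 and 4 at Plxnc1. The 2 bins at Ddx17 adjoin each other, and their outer neighbours had 2 loops and 1 loop. An all-or-none bin was touched by loops of 3.79% of all tested genes. The 6 genes all had at least 25 more loops in M2p[pIL-4] than in M0[CTR]. Of the 278 tested genes with such a difference, 64 (23.0%) had loops touching an all-or-none bin. Most of these bins were empty in M0[CTR], so loops touching them add to the difference that defines the 278 genes. No enrichment is therefore read from this share.

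Without loops touching these bins, the scaled ratio of M2p[pIL-4] to M0[CTR] was 1.78 at Slc44a2, 1.42 at Tle3, 1.32 at Ddx17, 1.28 at B4galt5, 1.08 at Cdc42se2 and 1.04 at Plxnc1, so 1 of the 6 genes passed 1.5-fold. The loops of Slc44a2 and B4galt5 touched no such bin, though the Qtrt1 bin near Slc44a2, empty in M0[CTR] and IFNG, stayed under the limit of 10 loops with at most 7. In all, 62 of the 216 added loops (28.7%) touched one. The lists give no value for a bin pair that was not called, so a bin left out of calling and a bin without loops cannot be told apart.

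**Figure D5:**
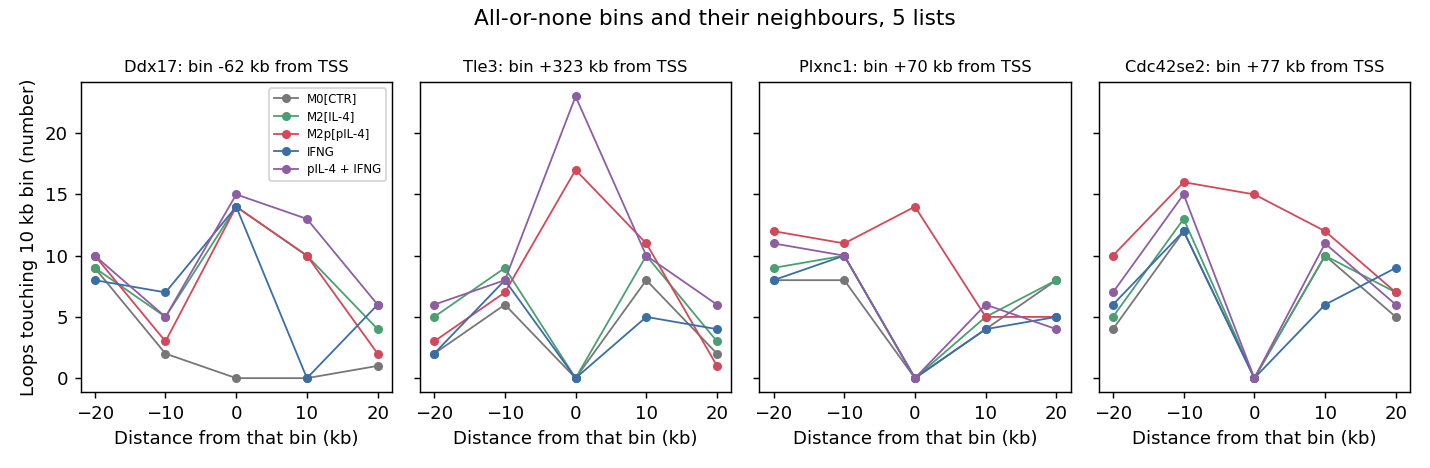
Number of loops touching 5 consecutive 10 kb bins in each of the 5 lists, centred on an all-or-none bin near Ddx17, Tle3, Plxnc1 and Cdc42se2 (positions along the chromosome). At the centre, M0[CTR] has 0 loops in every panel while the bins on each side have loops in most lists; at Ddx17 the bin 10 kb to the right is all-or-none too.

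The all-or-none bins were rich in GATC. They held a median of 35 sites (20 to 54), against 25 (11 to 45) in the other 2378 bins with 10 or more loops. All-or-none bins made up 0% of 251 such bins with under 20 sites, 0.133% of 752 with 20 to 24, 0.673% of 891 with 25 to 29, 3.41% of 411 with 30 to 34, 15% of 100 with 35 to 39 and 43.75% of 16 with 40 or more. At the 6 genes the sites numbered 41 in the Cdc42se2 bin, 38 in the Plxnc1 bin, 35 in the Tle3 bin and 33 and 32 in the Ddx17 bins. A high site number did not always go with an empty list. The bin adjoining that of Cdc42se2, chr11:54850001-54860000, held 39 sites, more than the Plxnc1, Tle3 and Ddx17 bins. It was not all-or-none, and at least 12 loops of every list touched it. The Qtrt1 bin near Slc44a2 held 42, the most of the 22 bins examined. These classes were set after the data had been seen, and the part of cutting-site density in the loop numbers was not tested.

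The promoters of Plxnc1 and B4galt5 are shown because their TSS bins had the most loops of the 6 in M2p[pIL-4]. The Plxnc1 TSS bin was touched by 5 loops in M0[CTR], 5 in IFNG, 3 in M2[IL-4], 6 in pIL-4 + IFNG and 9 in M2p[pIL-4]. The B4galt5 TSS bin was touched by 5, 5, 3, 4 and 8 loops in the same order. Each is the RefSeq sequence in GRCm38.p6, on the minus strand, from 250 bases before the start to 50 after, with CG dinucleotides in capitals.
Plxnc1 promoter, chr10:94944796-94945095: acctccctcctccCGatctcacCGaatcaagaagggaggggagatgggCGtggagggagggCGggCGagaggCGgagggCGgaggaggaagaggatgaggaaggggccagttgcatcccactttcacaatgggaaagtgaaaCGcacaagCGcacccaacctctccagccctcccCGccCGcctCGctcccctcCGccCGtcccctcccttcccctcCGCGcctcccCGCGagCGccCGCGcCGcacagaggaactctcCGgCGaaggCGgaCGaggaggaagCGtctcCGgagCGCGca
B4galt5 promoter, chr2:167349129-167349428: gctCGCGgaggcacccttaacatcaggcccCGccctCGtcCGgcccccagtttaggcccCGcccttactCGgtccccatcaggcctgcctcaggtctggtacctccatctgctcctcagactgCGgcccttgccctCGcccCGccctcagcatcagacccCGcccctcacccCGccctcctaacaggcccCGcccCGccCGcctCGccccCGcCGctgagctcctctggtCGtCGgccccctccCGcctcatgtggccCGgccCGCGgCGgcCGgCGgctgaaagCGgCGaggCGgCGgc
They held 30 and 31 CG dinucleotides, against a median of 7 over all promoters. All 6 genes were matched to a promoter, and none of the 6 held TTC and GAA separated by 4 bases, the spacing that STAT6 prefers. This motif reads the same on either strand. It was present in 6.99% of 32619 promoters of this length, and its absence says only that these letters are not in this window.

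Relatives of the 6 genes were listed for comparison: other choline transporter-like proteins, plexins, galactosyltransferases and Groucho corepressors, with Ddx5, Cdc42se1 and the ligand gene Sema7a. All 26 matched the annotation and 20 had enough loops. In M2p[pIL-4] against M0[CTR], 1 of the 20 was at least 1.5-fold higher and 1 lower, with a median log2 ratio of 0.02, where 7.24% of all genes were higher by that fold and their median was -0.03. In pIL-4 + IFNG against IFNG, 1 was higher and 1 lower, with a median of -0.13, against 7.36% of all genes higher and a median of -0.02. In M2[IL-4] against M0[CTR], 1 was higher and 1 lower, with a median of 0.07, against 8.92% and -0.02. Ddx5, the closest relative of Ddx17, had 61 loops in M0[CTR], 64 in IFNG, 78 in M2[IL-4], 69 in pIL-4 + IFNG and 74 in M2p[pIL-4], so its M2p[pIL-4] number was below that of M2[IL-4]. Other relatives went both ways in M2p[pIL-4] over M0[CTR], with log2 ratios of 0.51 at Plxna2, 0.29 at Plxna1, -0.47 at Aes and -0.66 at Tle6. B4galt3 had 25 more loops in M2p[pIL-4], the same raw difference as B4galt5, and a log2 ratio of 0.03.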

How the data were processed

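Loop lists from Hi-C of mouse bone marrow-derived macrophages were used, 1 for each of 5 groups, assigned from the sample titles. Each line of the deposited lists gave a pair of 10 kb bins and its contacts as a raw, whole-number count, without a header, and the replicates of a group appeared to be pooled by the authors. The submitters' processing notes name FastQC, Bowtie2, HiC-Pro, Juicer, HOMER and mm10. The authors' methods describe loops called with HICCUPS at another bin size, so the caller and threshold of these lists are not given in the sources used here. Lists hold called pairs only, and their summed counts, from 2174945 to 2787117, are not library depth.

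GENCODE M21 supplied 21728 autosomal and X-linked protein-coding genes. The members, gene lists and measures were chosen with earlier results of these data known. Loop ratios were log2 of loops plus 1 over loops plus 1, scaled by list length, for genes with a mean of at least 5 loops. With 1 list for each group, no test was run, and a fold of 1.5 stood for a call. Intervals are exact 95% binomial intervals for counting error and are too narrow where loops share a bin. Named genes were the 6 genes, those with a TSS in their windows or named bins, relatives from a list, and the 5 genes closest in profile. Counting was tested on simulated data. The software was pandas 2.3.3 and numpy 2.4.6 under Python 3.11.15, with scipy 1.17.1 for intervals and matplotlib 3.10.9 for plots. Alternatives tried were other windows, scalings, filters, pseudocounts, matching distances and merged bin pairs, and, chosen after seeing the data, lists without all-or-none bins, bins that every list uses and the IFNG list as reference.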

Additional observations from a re-analysis of the deposited data

Results flagged for a closer look

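At 2 genes the ratio of washed-out to unprimed lists had opposite signs without and with IFNG. At B4galt5 the scaled log2 ratio was 0.34 in M2p[pIL-4] over M0[CTR] and -0.12 in pIL-4 + IFNG over IFNG, a difference of 0.46. At Plxnc1 the ratios were 0.26 and -0.08, a difference of 0.34. The difference was not tested at either gene, since each group has 1 list, and all 4 intervals for counting error held 0. The choice of genes by itself raised M2p[pIL-4] over M0[CTR], so no effect of IFNG is read from the opposite signs.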

How the results depend on the processing

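Of 105 alternative values computed for 11 results, 24 moved. A median or contact ratio was taken to move when it shifted by at least the half-width of its counting interval, and a count or percentage when it shifted by over 1.5 times. For M2p[pIL-4] over M0[CTR], the median log2 ratio of 0.52 became 0.24 with a 200 kb window, 0.86 with no scaling and 0.25 with touching bin pairs merged over the lists. The 3 genes past 1.5-fold became 6 with no scaling, 1 without all-or-none bins, 1 with bins that every list uses, 0 with merged pairs and 1 with the IFNG list as reference. For pIL-4 + IFNG over IFNG, the median of 0.20 became 0.48 with no scaling, -0.0020 without all-or-none bins, -0.0093 with bins that every list uses and 0.03 with merged pairs, the last 3 within that half-width, and the 0 genes past the fold became 1 with a 50 kb window and 1 with no scaling. For M2[IL-4] over M0[CTR], the median of -0.01 became 0.30 with a 50 kb window, and the 2 genes past the fold became 1 with a 200 kb window, 1 without all-or-none bins, 1 with bins that every list uses and 0 with merged pairs. For M2p[pIL-4] over M2[IL-4], the median of 0.39 became 0.61 with no scaling, 0.16 with bins that every list uses and 0.15 with merged pairs. The 61 gained loops became 333 when the same bins were required, 22 when matched within 50 kb, 39 with a 50 kb window and 25 with bins that every list uses. The share of all genes past the fold went from 7.24% to 15.1% when all 18010 genes with a loop were used. What caused these moves was not examined, so the cause was not tested here.

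No paired analysis was possible because the replicates of a group are pooled in its list, and for the same reason leaving out each replicate was not run. The lists hold called bin pairs only, so contacts below the caller's threshold, and thus the size of a gain at a pair not called in M0[CTR], have no value here.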

Other observations

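The genes whose profile of loop numbers over the 5 lists lay closest to the median profile of the 6, among 6468 genes with a mean of at least 20 loops and over 500 kb away, were Fyb, Kdm7a, Slc27a3, Cbl and Bicra. The measure was the Euclidean distance between centred log2 loop numbers over 5 lists. Fyb, which encodes an adaptor of immune cell signalling, was the closest at 0.032, with 17 loops in M0[CTR], 18 in IFNG, 19 in M2[IL-4], 25 in pIL-4 + IFNG and 30 in M2p[pIL-4]. Kdm7a, a histone demethylase gene, lay at 0.078, with 36, 36, 39, 51 and 59 loops in the same order. Cbl, a ubiquitin ligase gene, lay at 0.16, with 25, 27, 26, 33 and 44 loops.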
